A study of Mus musculus with 14 samples.

Results

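Spheres grown from the adult subventricular zone (SVZ), the germinal layer that lines the lateral ventricle, were compared with spheres grown from the ventral forebrain of E14.5 embryos, the embryonic tissue from which much of the adult SVZ derives. All were secondary neurospheres, which form again after primary spheres of neural stem and progenitor cells are passaged, and all came from wild type CD-1 mice, an outbred strain. The adult SVZ group had 3 arrays and the E14.5 ventral forebrain group had 2, which is 5 of the 14 arrays in the study, chosen by their titles. The other arrays, from adult neocortex (3), adult striatum (3), E14.5 dorsal forebrain (2) and E14.5 spinal cord (1), entered the model to estimate the spread between arrays. The labels state neither adult age nor sex nor culture medium. They are also silent on whether replicate arrays stand for different mice or cultures, and the p-values therefore cover only the spread between these arrays, which may be technical. Of 45037 probe sets outside the array controls, 35211 were detected (detection p under 0.05) on at least 2 of the 14 arrays and were tested. The comparison is read first through 7 probe sets given with it, those of Dlx2, Six3, Lhx8, Car9, Gfap, Mbp and Hmga2, and then through lists of genes by role.

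The ventral forebrain of the embryo is patterned by homeodomain and LIM transcription factors, such as those of the Dlx, Gsx, Nkx and Lhx families and Six3, and makes striatal and interneuron lineages. Adult SVZ stem cells are astrocyte-like cells that contain GFAP, and they give rise to neuroblasts and to some oligodendrocytes. In culture with growth factors, both sources form spheres that mix stem cells, dividing progenitors and differentiating progeny. In a bulk sample fewer cells of a type cannot be told apart from less RNA per cell.

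The 2 ventral arrays differed from each other more than the SVZ arrays did. Over the tested probe sets, which are not independent replicates, the correlation of log2 signals was 0.968 to 0.972 among the SVZ arrays, 0.887 to 0.893 between SVZ arrays and ventral sample 1, and 0.798 to 0.804 between SVZ arrays and ventral sample 2. The ventral arrays correlated at 0.922 with each other, and each lay closer to the dorsal array of the same number, at 0.968 for number 1 and 0.955 for number 2. With the E14.5 spinal cord array ventral sample 2 correlated at 0.928, also above its value with ventral sample 1, and ventral sample 1 at 0.899. Values for both ventral samples are therefore given singly, and counts are repeated with only 1 of them. Array medians ran from 222.1 to 244.6 in SVZ and were 273.6 and 289.9 in ventral arrays.

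Markers of cells other than neural ones moved with ventral sample 2. The summed signal of 8 endothelial markers was 1333, 2143 and 1667 in SVZ spheres, against 396 in ventral sample 1 and 5452.0 in ventral sample 2. Most of each SVZ sum came from Flt1 (values below). The 7 other markers had log2 differences, SVZ minus ventral, of -1.93 to -0.66, and none passed the test. Cldn5, a tight junction gene of brain endothelium, had signals of 67.3, 59.7 and 13.6 in SVZ spheres, against 12.6 in ventral sample 1 and 1864 in ventral sample 2. The summed signal of 17 microglia markers was 4146, 2820 and 3120 in SVZ spheres, against 1365 in ventral sample 1 and 11967 in ventral sample 2. Csf1r, the receptor that microglia need to survive, read 8.8, 48.4 and 21.3 in SVZ spheres, against 4.0 in ventral sample 1 and 842.7 in ventral sample 2. The defining microglia genes Cx3cr1 and Tmem119 did not follow, with highest signals in ventral spheres close to those in SVZ spheres (values below). The summed signals of 10 pericyte and mesenchymal markers (5487 to 10165 in SVZ, against 3996 and 8047 in ventral spheres) and of 7 ependymal markers (6146 to 7127 in SVZ, against 2413 and 1400.3 in ventral spheres) did not single out ventral sample 2 upwards. The part of these cells in the differences below was not tested.

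Sex-linked transcripts also moved with age. Xist, the X-inactivation RNA of female cells, had signals of 32.1, 44.9 and 4.8 in SVZ spheres and was not detected there, against 11761 and 16863 in ventral spheres, at least 213-fold lower in SVZ (log2 difference -7.86 ± 0.49 SE, adjusted p = 1.35e-06, limma). Eif2s3y, a gene of the Y chromosome, read 11130, 10966 and 9965 in SVZ spheres, against 4042 in ventral sample 1 and 54.6 in ventral sample 2. Ventral sample 1 therefore held both Xist and Y-linked RNA, and ventral sample 2 was near background for the Y-linked gene. Sex composition and age cannot be told apart in these groups. The Gapdh control, a sign of RNA integrity, had a log2 ratio of its 3' to its 5' probe set of 0.718, 0.658 and 0.64 in SVZ arrays, against 1.172 and 1.208 in ventral arrays. The same ratio of the b-actin control was near 0 in both groups, at -0.077, 0.032 and -0.005 in SVZ arrays, against -0.01 and -0.03 in ventral arrays.

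In the limma test 10938 of 35211 probe sets (31.1%) passed an adjusted p of 0.05, 6528 higher in SVZ spheres (18.5%) and 4410 lower (12.5%). Of these, 8265 differed at least 2-fold (23.5% of those tested), 4783 higher (13.6%) and 3482 lower (9.89%). The arrays of both groups did not overlap for 54.8% of all tested probe sets, 31.6% with SVZ higher and 23.2% with SVZ lower, so that absence of overlap alone carries little weight here. By the study's own kind of rule, with every SVZ array at least 2-fold above every ventral array or below it, 2581 probe sets were higher (7.33%) and 1989 lower (5.65%). On the log2 scale the median difference over tested probe sets was 0.10 after centring each array on its median, -0.03 after quantile normalization and -0.14 in the signals as deposited, and the share of calls that were higher in SVZ was 59.7%, 48.3% and 43.2% under these scalings. With only ventral sample 1 in the comparison 5594 probe sets passed (15.9%), 9.51% higher and 6.38% lower. With only ventral sample 2, 11310 passed (32.1%), 19.6% higher and 12.5% lower, the lone array being assumed to vary like the other groups. Of the 10938 calls, 4668 passed with either ventral sample alone, all in the same direction.

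Among regional transcription factors, Lhx8 was near background in SVZ spheres and lower than in ventral spheres, while neither Six3 nor Dlx2 passed the test. Six3, which helps specify ventral forebrain progenitors, had signals of 1534, 1224 and 1244 in SVZ spheres, against 1429 and 1675 in ventral spheres. The groups overlapped, and the log2 difference was 0.02 ± 0.41 (SE, adjusted p = 0.977). In the cortical lineages the same probe set was lower, at 44.4, 176.3 and 139.6 in adult neocortex spheres and 93.1 and 131.3 in dorsal forebrain spheres. Lhx8, a LIM factor of basal forebrain cholinergic neurons, had signals of 2.9, 8.9 and 2.2 in SVZ spheres, against 607.8 and 5326 in ventral spheres. It was not detected on any SVZ array and was at least 38.0-fold lower there (log2 difference -5.63 ± 0.63 SE, adjusted p = 5.28e-05). Dlx2, a homeobox gene of ganglionic eminence progenitors and adult neuroblasts, had signals of 3976, 3103.5 and 3689 in SVZ spheres, against 6685 and 26462 in ventral spheres. Every SVZ array lay below both ventral arrays, but the ventral arrays lay so far apart that the log2 difference of -1.65 ± 0.86 (SE) had an adjusted p of 0.165, with -0.70 against ventral sample 1 alone and -2.60 against ventral sample 2 alone.

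**Figure D1:**
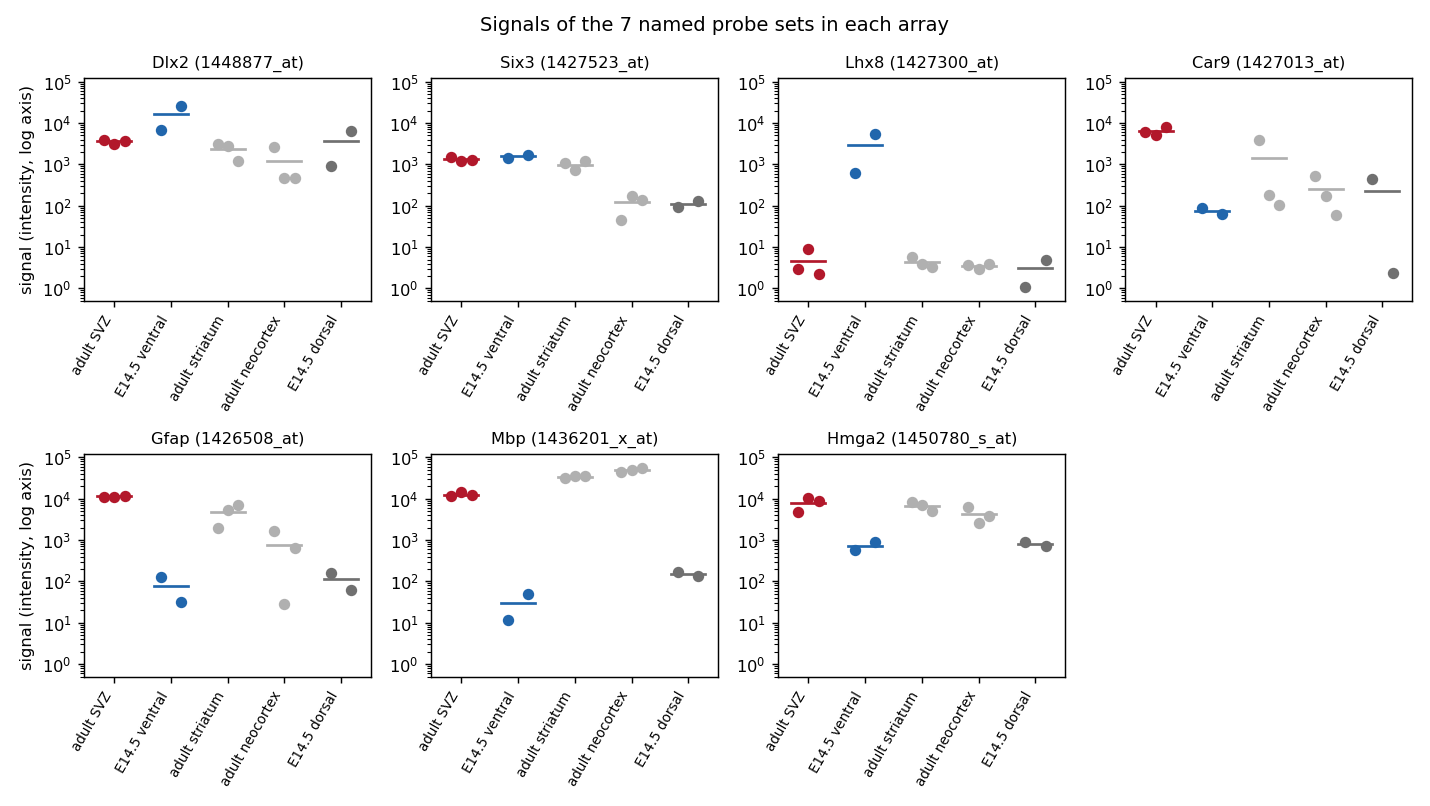
Signal of the 7 named probe sets on each array (log axis), with adult SVZ in red, E14.5 ventral forebrain in blue and the remaining forebrain groups in grey. Points are arrays and bars are group means. Six3 reads 1224 to 1534 in SVZ and 1429 to 1675 in ventral spheres, while Lhx8 reads at most 8.9 in SVZ and at least 607.8 in ventral spheres.

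Lists are counted with 1 probe set per gene, the one with the highest mean log2 signal over all 14 arrays, except that the 7 given genes keep their given probe sets. By that rule 36.9% of 14716 genes passed, 23.4% higher in SVZ and 13.4% lower, with a median difference of 0.19. With ventral sample 1 alone 12.2% were higher and 7.70% lower, and with ventral sample 2 alone 24.8% were higher and 13.3% lower. Members without a tested probe set of their own are left out of the counts. Of 13 ventral telencephalic transcription factors tested, 8 were lower and 1 was higher, with a median of -2.47. The lower members were Dlx1, Dlx5, Dlx6, Lhx6, Lhx8, Isl1, Vax1 and Ebf1. Lhx6, a factor of medial ganglionic eminence interneurons, read 71.9, 53 and 8.2 in SVZ spheres, against 2886 and 9941 in ventral spheres (log2 difference -6.13 ± 0.81 SE, adjusted p = 0.000168). Dlx5, which acts downstream of Dlx2 in maturing interneurons, read 94.9, 163.5 and 45.8 in SVZ spheres, against 2311 and 11694 in ventral spheres (-5.22 ± 0.69, adjusted p = 0.000173). Dlx5, Lhx6, Lhx8 and Isl1 are the members that also passed with ventral sample 1 alone, where 4 were lower, while all 8 passed with ventral sample 2 alone. Isl1, a LIM factor of striatal projection neurons, is read by more than 1 probe set, and the one counted gave 28.2, 58.5 and 6.4 in SVZ spheres, against 582.0 and 6224 in ventral spheres (-4.94 ± 0.81, adjusted p = 0.000686), while another gave a larger difference and stands among the largest falls below. The member that was higher, Gsx1, read 123.8, 133.6 and 170.5 in SVZ spheres, against 67.9 and 22.3 in ventral spheres (1.54 ± 0.54, adjusted p = 0.0464), and lost that call when any 1 of the SVZ arrays was left out. The members that did not pass besides Dlx2 and Six3 were Gsx2 (-1.66 ± 0.77, adjusted p = 0.121) and Sp8 (-2.18 ± 1.20, adjusted p = 0.191).

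The ventral spheres also carried transcripts of cortical neurons. Of 14 dorsal telencephalic transcription factors tested, 5 were lower in SVZ spheres (Tbr1, Neurod6, Neurod2, Eomes and Neurod1) and 1, Emx2, was higher. Tbr1, a marker of deep-layer cortical neurons, read 43.1, 6.4 and 36.7 in SVZ spheres, against 3466 and 13863 in ventral spheres (-6.80 ± 0.65, adjusted p = 2.09e-05). Its signals in dorsal forebrain spheres were 4350 and 21414, so by Tbr1 the ventral spheres were near the dorsal ones. Neurod6, which marks cortical projection neurons, read 11.2, 1.2 and 1.7 in SVZ spheres, against 958.4 and 5382 in ventral spheres (-5.96 ± 0.67, adjusted p = 5.88e-05), and 3996 and 19747 in dorsal spheres. Lhx8 and Six3 did separate ventral from dorsal spheres, since Lhx8 read 1.1 and 5.0 in dorsal spheres. Emx2, a patterning factor of cortical progenitors that is also active in adult SVZ stem cells, read 9943, 9279 and 8692 in SVZ spheres, against 2578 and 2546 in ventral spheres (2.09 ± 0.37, adjusted p = 0.00107), and passed with either ventral sample alone. Pax6 (0.14 ± 0.38, adjusted p = 0.812) and Lhx2 (0.15 ± 0.30, adjusted p = 0.741), both progenitor factors, had differences that did not pass. With ventral sample 1 alone 3 members of the list were lower, and with ventral sample 2 alone 8. The Eomes call (adjusted p = 0.0278) was lost when any SVZ array was left out.

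Neuronal transcripts were lower in SVZ spheres. With both ventral samples in the fit, 14 of 20 neuroblast and neuron genes were lower and 0 were higher, with a median of -1.66. The median was -1.59 with ventral sample 1 alone and -1.98 with ventral sample 2 alone. Dcx, a microtubule protein of migrating neuroblasts, read 35.7, 291.3 and 298.3 in SVZ spheres, against 16584 and 33897 in ventral spheres (-6.75 ± 0.63, adjusted p = 1.84e-05). Rbfox3, the neuronal nuclear antigen NeuN, read 20.6, 12.8 and 4.9 in SVZ spheres, against 2027.5 and 5232 in ventral spheres (-6.15 ± 0.65, adjusted p = 3.94e-05). In each of these the ventral arrays lay far above every SVZ array. Syt1, a synaptic vesicle calcium sensor, read 20.5, 139.1 and 125.1 in SVZ spheres, against 5704.5 and 7841 in ventral spheres (-5.74 ± 0.64, adjusted p = 5.66e-05). Tubb3, Stmn2 and Nrxn3, which encode neuronal tubulin, a growth cone protein and a presynaptic adhesion protein, were lower, with log2 differences of -5.49, -3.91 and -2.41 on the log2 scale. Not every neuronal gene differed in this way. Gad2, a GABA synthesis enzyme, read 27522, 16896 and 26942 in SVZ spheres, against 13018 and 25207 in ventral spheres (0.60 ± 0.91, adjusted p = 0.662), and Gad1, the other such enzyme, read 2041, 1651 and 2010.4 in SVZ spheres, against 6610 and 7310.0 in ventral spheres (-1.62 ± 0.56, adjusted p = 0.0436), a call lost without any 1 of the 5 arrays.

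Cell division genes were lower in SVZ spheres too. Of 32 cell cycle and DNA replication genes, 27 were lower and 2 were higher, with a median of -1.51. Kif11, the mitotic spindle motor, read 975.2, 1513 and 1124 in SVZ spheres, against 12234 and 11602 in ventral spheres (-3.06 ± 0.27, adjusted p = 1.36e-05). Cdc6, which loads the replicative helicase, read 223.5, 728.3 and 259.8 in SVZ spheres, against 4075 and 2558 in ventral spheres (-2.87 ± 0.45, adjusted p = 0.000483). Here both ventral samples stood together above the SVZ arrays, and 25 members were lower with ventral sample 1 alone and 20 with ventral sample 2 alone. Mcm5, a helicase subunit, Bub1 and Bub1b, spindle checkpoint kinases, and Ccna2, cyclin A2, were lower, with log2 differences of -2.22, -2.11, -2.01 and -1.98 on the log2 scale. The members that were higher were the D cyclins Ccnd1 (1.73 ± 0.59, adjusted p = 0.0416) and Ccnd2 (0.46 ± 0.11, adjusted p = 0.00738). Each is read here at its counted probe set only, and for Ccnd2 others gave larger differences (1.06 and 0.56). Ccnd1, the growth-factor-induced cyclin, read 28017, 29572 and 30712 in SVZ spheres, against 22039 in ventral sample 1 and 4939 in ventral sample 2, and neither D cyclin passed with ventral sample 1 alone or after quantile normalization. Ccnd1 also lost its call without any 1 of the SVZ arrays.

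Astrocyte transcripts were higher in SVZ spheres. Of 20 astrocyte genes, 18 were higher and 0 were lower, with a median of 2.29 (14 higher with ventral sample 1 alone and 19 with ventral sample 2 alone). Gfap, the intermediate filament of astrocytes and adult SVZ stem cells, had signals of 11050.0, 11287 and 11861 in SVZ spheres, against 127.3 and 32.1 in ventral spheres. The log2 difference was 7.14 ± 1.05 (SE, adjusted p = 0.00033), with 6.41 against ventral sample 1 alone and 7.87 against ventral sample 2 alone. All 3 probe sets of Gfap were higher. Aqp4, the water channel of astrocyte endfeet, read 17507, 14107 and 12956 in SVZ spheres, against 1191 in ventral sample 1 and 46.3 in ventral sample 2 (5.87 ± 0.86, adjusted p = 0.000336). Apoe, a lipid carrier, read 10712, 5516 and 6649 in SVZ spheres, against 328.3 and 121.7 in ventral spheres (5.24 ± 0.39, adjusted p = 4.45e-06). S100b, a calcium-binding protein, Aldh1l1, a folate enzyme, and Agt, angiotensinogen, were higher by 3.71, 3.63 and 3.32. The members that did not pass were Gjb6 (0.52 ± 0.69, adjusted p = 0.616) and Id3 (0.91 ± 0.47, adjusted p = 0.163).

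Myelin transcripts were higher as well. Mbp, myelin basic protein, had signals of 11453, 14230.3 and 12024 in SVZ spheres, against 11.9 and 49.7 in ventral spheres, at a probe set that was not detected on the ventral arrays. The log2 difference was 8.08 ± 0.23 (adjusted p = 4.45e-10). The brightest Mbp probe set was detected on both ventral arrays, at 103.6 and 148.1, against a mean of 17992 in SVZ spheres, so some Mbp signal was present there. Of the 8 tested Mbp probe sets 6 were higher and 2 did not pass. Of 16 myelin and oligodendrocyte genes, 12 were higher and 0 were lower, with a median of 1.95 (9 higher with ventral sample 1 alone and 11 with ventral sample 2 alone). Cldn11, a tight junction protein of the myelin sheath, read 8267, 9052 and 7457 in SVZ spheres, against 539.7 and 105.2 in ventral spheres (5.15 ± 0.55, adjusted p = 4.04e-05). Mag, an adhesion protein of the inner myelin wrap, read 715.4, 784.8 and 574.7 in SVZ spheres, against 5.6 and 5.0 in ventral spheres (4.70 ± 0.33, adjusted p = 2.75e-06). Mobp, Mal and Ermn, further myelin proteins, were higher by 4.34, 4.04 and 2.95. Of 13 oligodendrocyte progenitor genes 3 were higher (Cspg5, Ptprz1 and C1ql1), near the share over all genes. None of these 3 passed with ventral sample 1 alone, where Vcan, a matrix proteoglycan, was the 1 member that was higher, and 1 member passed without SVZ sample 1. For progenitor factors the ventral arrays did not behave as a group. Olig1 read 19177, 20388 and 19178.5 in SVZ spheres, against 20072.5 in ventral sample 1 and 1314 in ventral sample 2 (2.15 ± 1.27, adjusted p = 0.222), and Olig2 read 6426, 6827 and 6915 in SVZ spheres, against 7979 in ventral sample 1 and 1035.0 in ventral sample 2 (1.45 ± 1.29, adjusted p = 0.429).

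**Figure D2:**
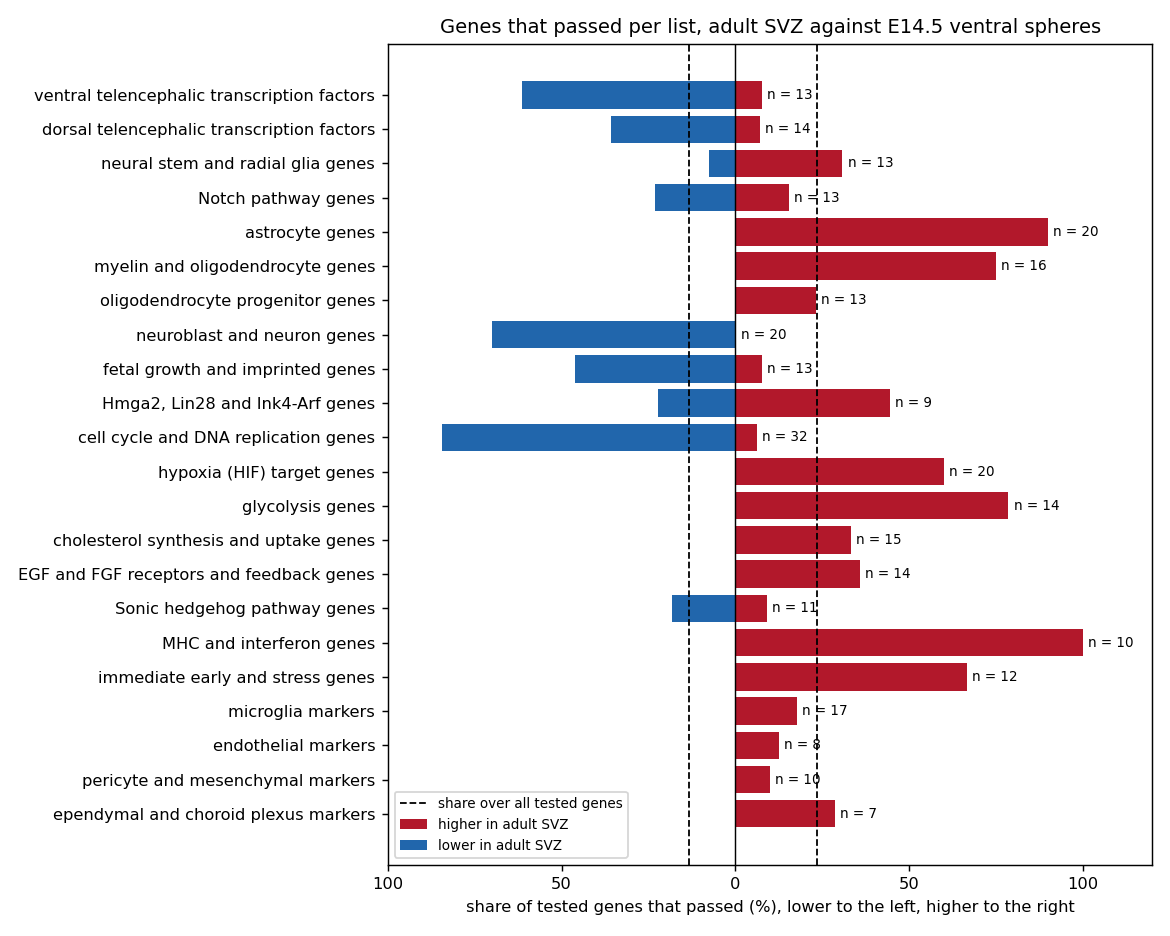
Share of tested genes (%) that passed an adjusted p of 0.05 in each list, with genes higher in adult SVZ to the right and lower to the left, against E14.5 ventral spheres. Dashed lines mark the shares over all 14716 genes, 23.4% higher and 13.4% lower, and n is the number tested. Astrocyte genes (18 of 20 higher) and cell cycle genes (27 of 32 lower) lie far from the dashed lines, and oligodendrocyte progenitor genes (3 of 13 higher) lie at one.

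Car9, a carbonic anhydrase induced by low oxygen through hypoxia-inducible factor (HIF), stood among the probe sets far apart between the groups. Its signals were 5969, 5275.5 and 7911 in SVZ spheres, against 87.4 and 63.1 in ventral spheres. All SVZ arrays lay far above both ventral arrays, with a log2 difference of 6.2 ± 1.35 (SE, adjusted p = 0.00402). The other adult arrays were not uniformly high, at 3903.5, 185.4 and 104.2 in striatum spheres and 519.9, 167.7 and 58.1 in neocortex spheres. HIF binds DNA at a short motif whose forms include ACGTG. Only ACGTG, called the core here, was searched, on either strand. Matches to GCGTG, another form, were not counted. The promoters of Car9, P4ha1 and Slc2a1, the 3 hypoxia genes that passed with either ventral sample alone, each hold 1 match, printed in capitals below as ACGTG or its reverse complement CACGT. They run from 250 bases before to 50 bases after the transcription start, on the plus strand in RefSeq's annotation of GRCm38.p6, at chr4:43506776-43507075, chr10:59323046-59323345 and chr4:119108495-119108794, and their matches begin 18, 16 and 36 bases before the start.
Car9: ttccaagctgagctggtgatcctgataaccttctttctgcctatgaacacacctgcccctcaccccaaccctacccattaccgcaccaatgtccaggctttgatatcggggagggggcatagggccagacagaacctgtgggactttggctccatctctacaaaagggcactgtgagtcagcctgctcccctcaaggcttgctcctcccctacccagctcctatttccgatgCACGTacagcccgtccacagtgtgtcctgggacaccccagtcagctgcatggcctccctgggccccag
P4ha1: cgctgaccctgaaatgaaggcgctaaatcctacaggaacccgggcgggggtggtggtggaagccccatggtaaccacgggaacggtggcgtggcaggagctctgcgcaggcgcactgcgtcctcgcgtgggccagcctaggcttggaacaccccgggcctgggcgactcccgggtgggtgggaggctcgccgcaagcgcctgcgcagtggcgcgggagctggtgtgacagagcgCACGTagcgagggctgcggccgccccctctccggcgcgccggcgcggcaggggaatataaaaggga
Slc2a1: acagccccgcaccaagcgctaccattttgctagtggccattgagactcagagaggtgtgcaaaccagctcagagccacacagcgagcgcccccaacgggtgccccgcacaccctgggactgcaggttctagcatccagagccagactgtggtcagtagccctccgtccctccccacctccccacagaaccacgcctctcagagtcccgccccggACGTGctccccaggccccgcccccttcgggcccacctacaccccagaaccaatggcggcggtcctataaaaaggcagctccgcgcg
Of the hypoxia list, 18 genes had a promoter in the RefSeq table and 14 of them (77.8%) held the core on either strand, against 21.8% of all 27025 genes in the table. Of the hypoxia genes that were higher in SVZ, 8 of 10 with a promoter held it (80.0%). This is near the share of the whole list, so the core does not set the higher genes apart within it. A gene with several promoters counts if any of them holds the core. Vegfa counts in this way, since 1 of its promoters held the core and the other did not. A match describes the letters only and not binding.

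Of 20 hypoxia target genes tested, 12 were higher in SVZ spheres and 0 were lower, with a median of 1.97. Vegfa, the vascular growth factor, read 15461, 12131 and 13961 in SVZ spheres, against 2275 and 957.8 in ventral spheres (3.44 ± 0.80, adjusted p = 0.0059). P4ha1, a collagen prolyl hydroxylase, read 11533, 7744 and 11552 in SVZ spheres, against 1647 and 804.9 in ventral spheres (3.34 ± 0.61, adjusted p = 0.00133). Ero1a, an oxidase of the endoplasmic reticulum, was higher by 3.17, and Bnip3, a mitophagy receptor, by 2.33, although Bnip3 lost its call without SVZ sample 1, SVZ sample 3 or ventral sample 2. Bhlhe40, a repressor, read 17078, 11706.5 and 15603 in SVZ spheres, against 9100.1 in ventral sample 1 and 661.1 in ventral sample 2 (2.78 ± 0.98, adjusted p = 0.0458), a call lost without any SVZ array. The choice of arrays weighed on this list more than on the astrocyte and myelin lists, since 3 members passed with ventral sample 1 alone, 15 with ventral sample 2 alone, and 7 without SVZ sample 1 or SVZ sample 3. The summed signal of the list was 256641, 207323 and 259152 in SVZ spheres, against 118601 and 78599 in ventral spheres. Spheres of adult striatum gave 269701, 115953 and 113427, so 1 of them reached the SVZ level and the others were near ventral sample 1. Neocortex spheres gave 171196, 107998 and 113863, and E14.5 dorsal spheres 165289 and 96422. Sample 1 thus had the highest sum in the ventral, striatum, neocortex and dorsal groups, but not in SVZ. The reason was not tested.

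Glycolysis genes, many of which HIF also induces, were higher for 11 of 14 and lower for 0, with a median of 1.42. In the signals as deposited 8 were higher, and after quantile normalization 8. Pfkfb3, which makes the activator of phosphofructokinase, read 18704, 13115 and 18074 in SVZ spheres, against 3087.5 and 3800.0 in ventral spheres (2.49 ± 0.50, adjusted p = 0.00246). Slc2a1, the glucose transporter GLUT1, from the hypoxia list, read 33139, 26956.5 and 32317 in SVZ spheres, against 8394.5 and 12298 in ventral spheres (1.83 ± 0.33, adjusted p = 0.0013). Pfkp, a phosphofructokinase, Hk1, a hexokinase, Eno2, an enolase, and Aldoa, an aldolase, were higher by 2.02, 1.94, 1.72 and 1.48. Of the list, 3 members (Hk1, Pfkm and Pfkfb3) passed with ventral sample 1 alone, and 11 with ventral sample 2 alone.

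Hmga2, a chromatin protein of fetal stem cells that is known in mouse brain to decline with age and to repress the Ink4-Arf locus, was higher in the adult spheres. Its signals were 4801, 10228 and 8814 in SVZ spheres, against 567.2 and 907.9 in ventral spheres. The SVZ arrays lay above both ventral arrays, with a log2 difference of 3.59 ± 0.39 (SE, adjusted p = 4.45e-05), and 3 of 4 probe sets were higher. It passed with either ventral sample alone, at 3.88 and 3.30. The Ink4-Arf genes were higher in the same spheres. Cdkn2a, which encodes p16 and p19Arf, read 416.1, 353.9 and 236.5 in SVZ spheres, against 55.1 and 69.1 in ventral spheres (2.23 ± 0.48, adjusted p = 0.00371). Cdkn2b, which encodes p15, read 15489, 14765 and 13575 in SVZ spheres, against 3895 in ventral sample 1 and 293.3 in ventral sample 2 (3.94 ± 0.95, adjusted p = 0.00701), and Cdkn1a, which encodes p21, read 36142, 34051 and 37004 in SVZ spheres, against 21987 in ventral sample 1 and 1933 in ventral sample 2 (2.68 ± 0.82, adjusted p = 0.0244). Neither Cdkn2b nor Cdkn1a passed with ventral sample 1 alone, and Cdkn1a did not pass without any 1 of the SVZ arrays either. The fetal RNA-binding proteins Igf2bp3 (-2.84 ± 0.25, adjusted p = 1.07e-05) and Igf2bp1 (-1.98 ± 0.48, adjusted p = 0.00761) were lower. The let-7 inhibitors Lin28a (0.79 ± 0.50, adjusted p = 0.259) and Lin28b (-1.06 ± 0.48, adjusted p = 0.117) read at most 83.6 and 7.9 in SVZ spheres, against at most 39.7 and 112.1 in ventral spheres.

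Of 13 fetal growth and imprinted genes, 6 were lower in SVZ spheres and 1, the growth-factor clearance receptor Igf2r, was higher, with a median of -0.75. Grb10, an imprinted growth repressor, read 1136, 1151 and 1027 in SVZ spheres, against 20041 and 17560.2 in ventral spheres (-3.82 ± 0.42, adjusted p = 5.24e-05). Cdkn1c, an imprinted cell cycle inhibitor, read 218.3, 122.5 and 304.2 in SVZ spheres, against 1594 and 2013 in ventral spheres (-2.75 ± 0.44, adjusted p = 0.000604). Meg3, Slc38a4, Peg3 and Ndn were lower, with log2 differences of -1.95, -1.60, -1.31 and -0.75. Igf2, the fetal growth factor, read 3112, 1035 and 1402 in SVZ spheres, against 666.1 and 3655 in ventral spheres, with overlapping groups (0.31 ± 1.09, adjusted p = 0.86).

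Of 13 neural stem and radial glia genes, 4 were higher (Hopx, Nes, Vim and Fabp7) and 1, Hes5, was lower, with a median of 0.50, against 23.4% higher and 13.4% lower over all genes, so the counts do not set this list apart. Hopx, which marks outer radial glia and some adult stem cells, read 2449, 1415 and 1989 in SVZ spheres, against 411.0 and 220.6 in ventral spheres (2.79 ± 0.39, adjusted p = 0.000253). Hes5, a target of Notch, read 1920, 1328.5 and 1198 in SVZ spheres, against 5197.5 and 5980 in ventral spheres (-1.68 ± 0.26, adjusted p = 0.000439). Hopx was the 1 member that was higher with ventral sample 1 alone. Sox2, the neural stem cell factor, read 20207, 17471 and 16656 in SVZ spheres, against 15836 and 14294 in ventral spheres (0.50 ± 0.22, adjusted p = 0.0975). Nr2e1, a nuclear receptor of adult stem cells, had a difference of -0.01 ± 0.28 (adjusted p = 0.985).

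Of 13 Notch pathway genes, 2 were higher and 3 lower, also near the shares over all genes (23.4% and 13.4%). The ligands Dll1 (-1.58 ± 0.24, adjusted p = 0.00035) and Dll3 (-1.15 ± 0.36, adjusted p = 0.0288) and the glycosyltransferase Mfng (-3.78 ± 0.48, adjusted p = 0.000117) were lower, and Dll3 lost its call with either ventral sample alone. Mfng, which modifies Notch receptors, read 309.5, 237.6 and 157.5 in SVZ spheres, against 3256 and 5169 in ventral spheres. The target Hey1 read 18510.2, 20521 and 20686 in SVZ spheres, against 7325 and 5085 in ventral spheres (1.94 ± 0.32, adjusted p = 0.000778), so Hey1 and Hes5, both Notch targets, differed in opposite directions. Lfng, another glycosyltransferase, was higher by 1.78 and passed with ventral sample 2 alone but not with ventral sample 1 alone. In the Sonic hedgehog pathway 1 of 11 genes was higher (Smo) and 2 were lower (Shh and Gli3), again against 23.4% and 13.4% over all genes. Gli3, its repressor, read 684.1, 848.1 and 885.1 in SVZ spheres, against 3242.5 and 4036 in ventral spheres (-1.90 ± 0.39, adjusted p = 0.00279).

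Genes that respond to EGF and FGF, the usual sphere mitogens, split the ventral samples. Egfr, the EGF receptor, read 7128, 6388 and 6111 in SVZ spheres, against 8237 in ventral sample 1 and 278.7 in ventral sample 2 (2.28 ± 1.34, adjusted p = 0.221). Etv4, an FGF-induced factor, read 2285, 1899 and 2472 in SVZ spheres, against 2168 in ventral sample 1 and 160.3 in ventral sample 2 (2.04 ± 1.07, adjusted p = 0.17). Ventral sample 1 was at the SVZ level for both and ventral sample 2 was far below. The counts that follow stand against 23.4% higher over all genes. Of 14 EGF and FGF receptors and feedback genes 5 were higher (Fgfr3, Spred1, Errfi1, Fgfr1 and Spred2), with 2 when ventral sample 1 was alone and 11 when ventral sample 2 was alone. Those that passed both ways were Fgfr3, an FGF receptor of astrocytes and their precursors (1.97 ± 0.35, adjusted p = 0.00105), and Errfi1, an inhibitor of the EGF receptor (1.30 ± 0.20, adjusted p = 0.000464). Immediate early and stress genes showed the same split. Fos read 18834, 18830.0 and 23829 in SVZ spheres, against 8673 in ventral sample 1 and 33.8 in ventral sample 2 (5.05 ± 1.73, adjusted p = 0.0416, a call lost without any SVZ array). Of 12 such genes 8 were higher, 4 with ventral sample 1 alone and 11 with ventral sample 2 alone. Ddit3, a factor of endoplasmic reticulum stress, read 11522, 5726 and 11660 in SVZ spheres, against 1208 and 1276 in ventral spheres (3.10 ± 0.48, adjusted p = 0.000498) and passed with either. Of 15 cholesterol synthesis genes 5 were higher (Msmo1, Mvd, Fdft1, Cyp51 and Hmgcs1, by 0.55 to 1.78), and 1 without SVZ sample 1. Only 2 were higher in the signals as deposited and 2 after quantile normalization. The median difference of the list was 0.34 with ventral sample 1 alone and 1.29 with ventral sample 2 alone.

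**Figure D3:**
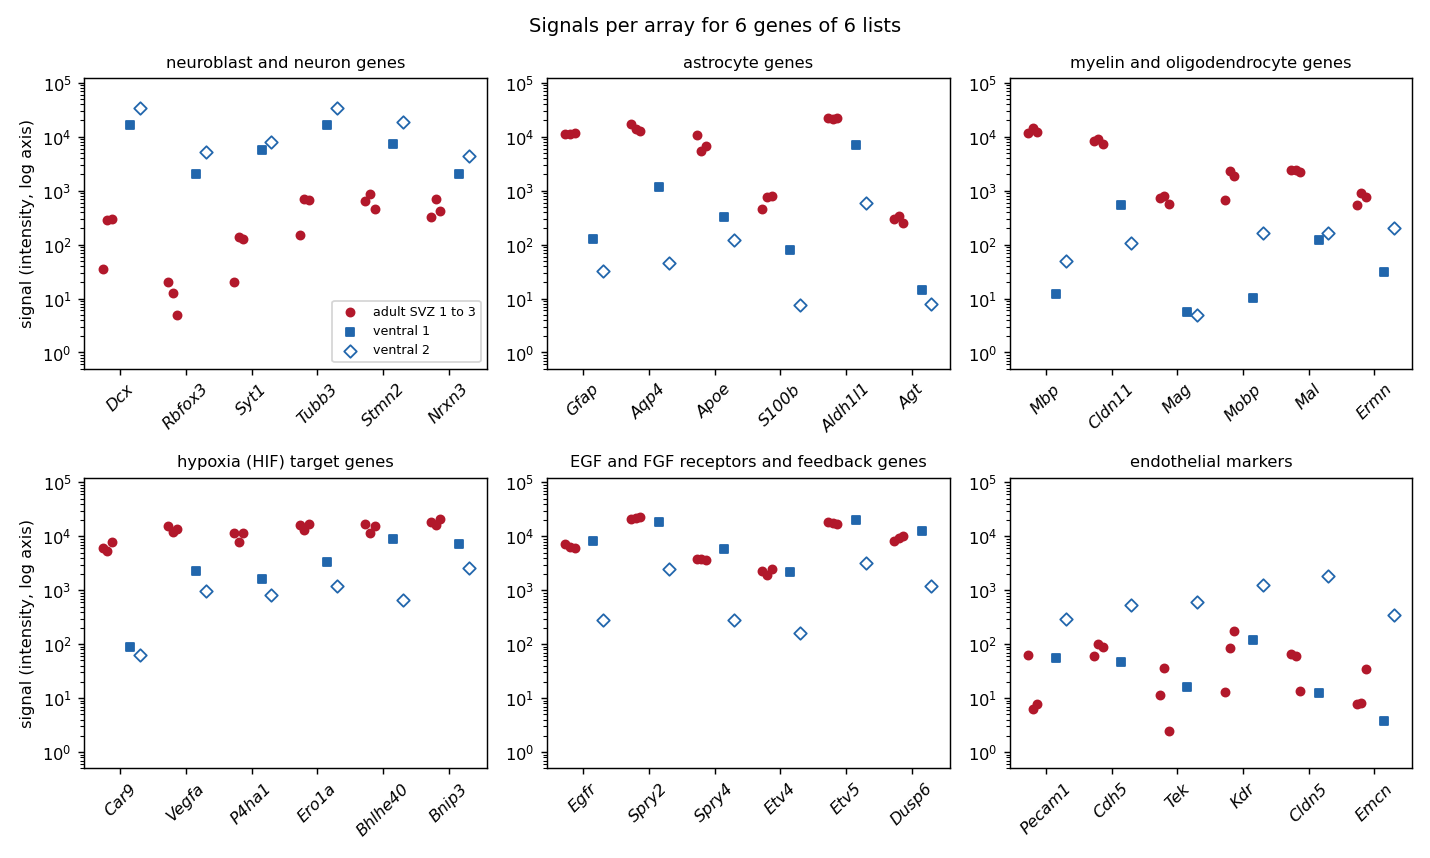
Signal on each array (log axis) of 6 genes from each of 6 lists, with adult SVZ samples 1 to 3 as red circles, ventral sample 1 as a filled blue square and ventral sample 2 as an open blue diamond. In the first 4 panels the genes are those with the largest differences that passed, and in the last 2, on EGF and FGF genes and endothelial markers, they were chosen after their values were seen. Ventral sample 1 lies at the SVZ level for Egfr (8237 against 6111 to 7128) and near SVZ for Cldn5, where ventral sample 2 reads 1864.

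MHC class I and interferon genes were higher for 10 of the 10 tested, with a median of 2.56. Psmb8, an immunoproteasome subunit, read 2013.5, 1002 and 1266 in SVZ spheres, against 43.1 and 60.4 in ventral spheres (4.39 ± 0.59, adjusted p = 0.000187). Ifit3, an interferon-induced antiviral protein, read 1879, 1568 and 902.3 in SVZ spheres, against 13.6 and 72.5 in ventral spheres (4.71 ± 0.83, adjusted p = 0.00104). H2-K1, a class I heavy chain, read 35811, 18173 and 26284 in SVZ spheres, against 13214 in ventral sample 1 and 595.8 in ventral sample 2 (3.41 ± 0.91, adjusted p = 0.0126). Ifit1 had the largest difference of the list (5.68 ± 1.71, adjusted p = 0.0236), and its call was lost without SVZ sample 1, SVZ sample 2 or either ventral sample. With ventral sample 1 alone 5 members were higher, and with ventral sample 2 alone 8. Of the microglia markers 3 of 17 were higher (Cd68, Cd14 and Lyz2), and the defining genes Cx3cr1 and Tmem119 read at most 92.0 and 98.5 in SVZ spheres, against at most 90.9 and 102.0 in ventral spheres. Of the ependymal markers 2 of 7 were higher, Foxj1, the master regulator of motile cilia (3.51 ± 0.52, adjusted p = 0.000359), and the axonemal gene Rsph1 (2.24 ± 0.34, adjusted p = 0.000449). Of the pericyte and mesenchymal markers 1 of 10 was higher, Tagln (2.46 ± 0.85, adjusted p = 0.0425), and of the endothelial markers 1 of 8, Flt1 (3.06 ± 0.77, adjusted p = 0.00899). Flt1, a VEGF receptor, read 1057, 1831 and 1304 in SVZ spheres, against 63.1 in ventral sample 1 and 404.1 in ventral sample 2, and did not pass with ventral sample 2 alone. The other endothelial markers read at most 177.8 on any SVZ array. Tagln lost its call without any SVZ array. Over all genes 23.4% were higher, so the microglia, ependymal, pericyte and endothelial counts do not set these lists apart.

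Taking for each named gene its probe set with the largest difference, the 10 largest rises that did not overlap between groups were those of Gfap, Nupr1, Mbp, Lcn2, Tnfaip2, Csn3, Cyp2d22, Esm1, Gpd1 and Synpo. Nupr1, a stress-induced nuclear protein, read 22994, 22724 and 22627 in SVZ spheres, against 65.2 and 25.1 in ventral spheres, where it was not detected (8.60 ± 0.76, adjusted p = 1.33e-05). Lcn2, a siderophore-binding protein of reactive astrocytes, read 11046.5, 6464 and 3821 in SVZ spheres, against 3.5 and 3.6 in ventral spheres, at least 198-fold higher (7.98 ± 0.96, adjusted p = 9.14e-05). Csn3, kappa casein, a milk protein gene, read 4908, 7765 and 7580 in SVZ spheres, against 7.1 and 25.7 in ventral spheres, at least 180-fold higher (7.53 ± 0.72, adjusted p = 2.05e-05). Synpo, an actin-binding protein, was higher by 6.92 ± 0.40 (adjusted p = 9.49e-07), with signals of 29906, 31683 and 30588 in SVZ spheres, against 359.6 and 204.6 in ventral spheres. Gpd1, glycerol-3-phosphate dehydrogenase, was higher by 7.0 ± 0.56 at the probe set with the largest difference (adjusted p = 6.61e-06) and by 4.85 at a brighter one that was detected in ventral spheres too. Counted the same way, the 10 largest falls were those of Xist, Tbr1, Dcx, Epha3, Isl1, Glra2, Myt1l, Insm1, Lmo3 and Runx1t1. Epha3, an axon guidance receptor, read 0.5, 39.8 and 34.0 in SVZ spheres, against 2551 and 11449 in ventral spheres (-6.58 ± 0.96, adjusted p = 0.000318). Insm1, a factor of newborn neurons and basal progenitors, read 7.4, 63.6 and 21.1 in SVZ spheres, against 2373 and 9963 in ventral spheres (-6.29 ± 0.80, adjusted p = 0.000121), and Myt1l, a neuronal fate factor, was also lower (-6.29 ± 0.80, adjusted p = 0.000122). These 20 probe sets passed with either ventral sample alone.

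The adult minus embryonic difference of SVZ and ventral spheres was set against that of neocortex and dorsal spheres, which share no array with them. Ventral and dorsal samples of the same number nevertheless deviated together (correlation 0.577), and the fit does not model this. The difference between both differences passed for 735 probe sets (2.09%), 315 higher in the SVZ and ventral pair (0.895%) and 420 lower (1.19%), with a median over all probe sets of 0.21. By 1 probe set per gene 1.27% were higher and 1.62% lower. Lhx8 was among the lower ones, at -5.63 for SVZ minus ventral and -0.02 for neocortex minus dorsal (difference -5.61 ± 0.88 SE, adjusted p = 0.00715). Gfap (5.58 ± 1.48, adjusted p = 0.0735), Car9 (5.43 ± 1.91, adjusted p = 0.168) and Hmga2 (1.37 ± 0.55, adjusted p = 0.223) did not pass, and neither did the given Mbp probe set, at 8.08 in the SVZ pair and 8.04 in the neocortex pair (0.04 ± 0.33, adjusted p = 0.968). Among the other Mbp probe sets 2 did pass as smaller differences in the SVZ pair, at -1.80 (adjusted p = 0.0297) and -2.16 (adjusted p = 0.0432).

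For 6 of 16 myelin genes the rise was smaller in the SVZ pair. Mal rose by 4.04 in the SVZ pair and by 7.85 in the neocortex pair (-3.81 ± 0.48, adjusted p = 0.00246), and Mag by 4.70 and 7.88 (-3.17 ± 0.46, adjusted p = 0.00511). The others were Mog, Ermn, Ugt8a and Aspa. Some genes of other lists, named after their values were seen, had a more positive difference in the SVZ pair. They made up 3 of 14 dorsal telencephalic transcription factors, 3 of 13 stem and radial glia genes, 1 of 13 Notch genes and 1 of 14 EGF and FGF genes. Emx2 had a difference of 2.09 in the SVZ pair and -1.26 in the neocortex pair (3.34 ± 0.52, adjusted p = 0.00689), and Hes5 had -1.68 and -4.17 (2.49 ± 0.37, adjusted p = 0.0052). Lhx2 was at 0.15 in the SVZ pair and -2.36 in the neocortex pair (2.51 ± 0.42, adjusted p = 0.01), Hey1 at 1.94 and -0.91 (2.84 ± 0.46, adjusted p = 0.00808) and Fgfr3 at 1.97 and -1.15 (3.12 ± 0.49, adjusted p = 0.00714). Among astrocyte genes 4 were higher in the SVZ pair (Sox9, Aldoc, Clu and Slc1a2), while S100b was lower, at 3.71 against 7.87 (-4.16 ± 0.70, adjusted p = 0.0103). None of the 20 neuroblast and neuron genes passed.

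**Figure D4:**
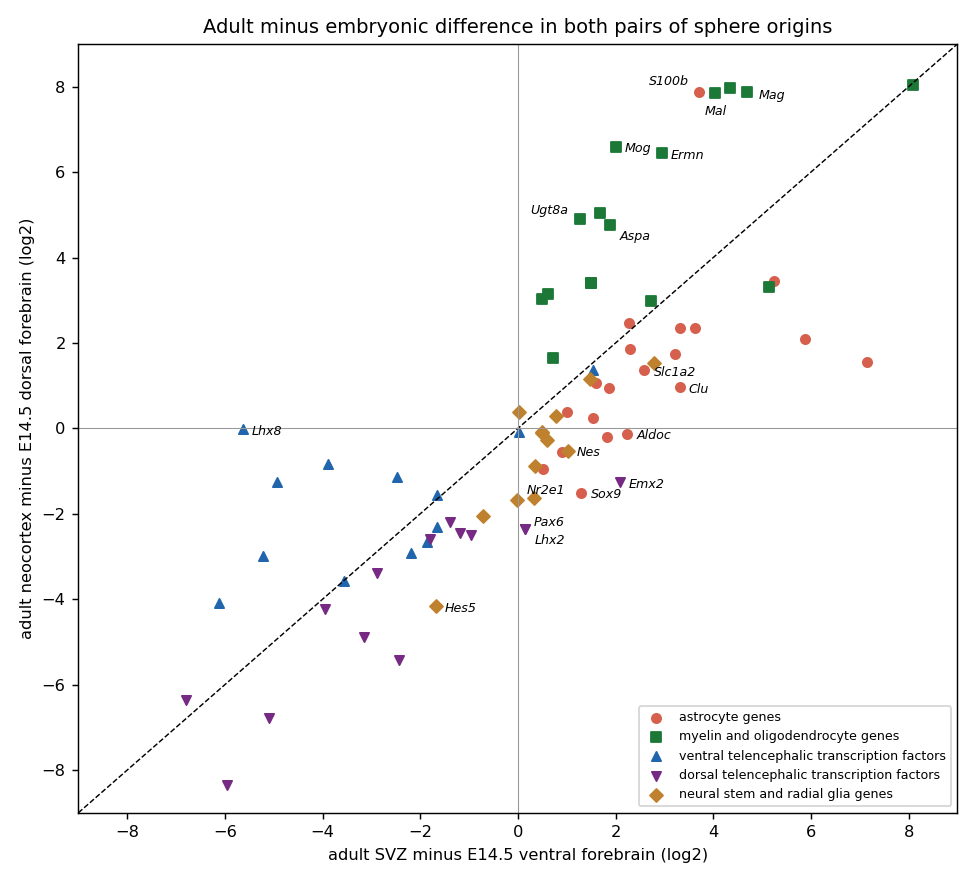
Log2 difference of adult SVZ minus E14.5 ventral spheres (x axis) against that of adult neocortex minus E14.5 dorsal spheres (y axis), 1 point per gene of 5 lists, on equal axes with the line of equality dashed. Named genes passed the test of the difference between both. The myelin genes named lie above the line (Mal at 4.04 and 7.85), and Emx2, Hes5 and Lhx2 lie below it.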

How the data were processed

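Total RNA of 14 sphere samples was labelled and hybridised to Affymetrix mouse arrays, 1 array per sample. The deposited intensity values are 1 signal per probe set, with a detection p-value per probe set, named Signal and Detection p-value per the file headers; software version, background correction and scaling target are not stated there. The study's design text names a 2-fold rule on median-normalized values.

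Signals were taken as log2(signal + 27.0), the pseudocount being 0.1 of the median array median (269.95), and centred on each array's median. Of 45101 probe sets, 64 controls and 9826 with fewer than 2 detected arrays were left out. limma 3.58.1 in R 4.3.3 fitted 1 mean per group over 14 arrays (lmFit and trended eBayes), and two-sided p-values over the 35211 tested probe sets were adjusted after Benjamini and Hochberg and called at 0.05. The fit was tested on simulated data. Depth has no count here, so the number of arrays limits the precision.

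A fold written "at least" is a bound, given where no tested probe set of the gene was detected in any array of the lower group: the mean of the brighter group is set against a mean in which each undetected signal is replaced by that array's lowest detected one, where this is higher. GEO's platform annotation gave 1 symbol to 34945 probe sets, several to 932 and none to 9160. In list counts a gene with several probe sets is read at the one with the highest mean log2 signal over all arrays, except that the 7 given probe sets stand for their genes.

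The members and the gene lists were chosen with earlier results of these data known. Named are the 7 given probe sets, the 10 largest rises and falls without overlap, up to 6 passed members per list with the largest differences, members that did not pass, and the 10 largest differences between both pairs. Outside that rule, Gad1, Slc2a1, Ccnd1, Ccnd2, Dlx6, Vax1, Gsx1, Ndn, Pfkm and Vcan, and the genes named in the comparison of both pairs other than Lhx8, were chosen after their values were seen. Alternatives changed the scaling, pseudocount, filter, variance model, arrays fitted and blocks.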

Additional observations from a re-analysis of the deposited data

Results flagged for a closer look

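The adult minus embryonic difference differed between the SVZ and ventral pair and the neocortex and dorsal pair for 735 probe sets at an adjusted p of 0.05 in limma. Each value below is the difference of the SVZ pair minus that of the neocortex pair on the log2 scale. Lhx8, a LIM factor of the basal forebrain, stood at -5.61. Csn3, kappa casein, stood at 6.57, with mean signals of 6751 in SVZ, 16.4 in ventral, 70.0 in neocortex and 13.6 in dorsal spheres. Afp, alpha-fetoprotein, stood at -7.3, with means of 5.6 in SVZ, 5.2 in ventral, 6229 in neocortex and 1.9 in dorsal spheres. Its other tested probe sets stood at -5.39 and -4.6. Kndc1, a neuronal guanine nucleotide exchange protein, stood at -7.05, with means of 980.2 in SVZ, 2486 in ventral, 19246 in neocortex and 272.5 in dorsal spheres. Another tested Kndc1 probe set stood at -3.75.

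The other probe sets with very large values belong to macrophage genes. Mmp12, macrophage elastase, stood at -8.55, with means of 10.1 in SVZ, 3.8 in ventral, 23674.5 in neocortex and 18.6 in dorsal spheres. Clec4d, a C-type lectin, stood at -7.98, and 2 of 3 probe sets of the complement receptor C3ar1 at -6.85 and -6.69 (the other at -5.81). Mpeg1, a perforin-like protein, stood at -6.71 and the protease Ctss at -6.6. The scavenger receptor Msr1 stood at -6.62, with its other tested probe sets at -5.73, -5.28 and -5.07. The summed signal of the 17 microglia markers was 2820 to 4146 in SVZ and 1365 and 11967 in ventral spheres, and 93504.6 to 126920.6 in neocortex spheres. The part of such cells in these values was not tested.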

How the results depend on the processing

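Against 10938 calls for SVZ against ventral spheres (6528 higher, 4410 lower), an adjusted p of 0.01 left 6289 (3801 higher, 2488 lower). Leaving out 1 array at a time gave 5594 to 11310 calls, 3349 to 6905 higher and 2245 to 4405 lower, with both ends from the fits without ventral sample 2 and without ventral sample 1. By the 2-fold rule, leaving out 1 array gave 2926 to 5775 higher and 2367 to 4080 lower, with the highest counts when ventral sample 1 was left out. Under this rule the counts cannot fall when an array is left out, so their rise carries no information. The 735 differences between both pairs (315 higher, 420 lower) depended more on the settings. Array weights gave 291 (105 higher, 186 lower), an adjusted p of 0.01 gave 164 (42 higher, 122 lower) and a fit of only the arrays compared gave 445 (182 higher, 263 lower). The higher count was 182 with signals as deposited, 194 after quantile normalization and 192 without a variance trend. Leaving out 1 array gave 322 to 1844 in all, 118 to 1195 higher and 204 to 649 lower, lowest without neocortex sample 2 and highest without ventral sample 1. The share of these calls that were higher was 42.9%, against 29.3% after quantile normalization and 23.6% with signals as deposited. No code in the array names was shared by adult and embryonic arrays, so code and age cannot be told apart. In the ventral group 1 array name carried a code and the other carried none, and the same held for the dorsal group. With the code as a random block, an alternative chosen after seeing the data, 2467 differences between pairs passed (1509 higher, 958 lower). In that fit the arrays without a code, from the ventral, dorsal and spinal cord groups, were treated as a shared block. SVZ and ventral samples with the same number did not deviate together (correlations of 0.025 and -0.013), nor did neocortex samples with any of the other groups compared (0.031 to 0.064). Ventral and dorsal samples with the same number did (0.577, which is the same for both numbers by construction with 2 samples a group), so the numbers do not pair adult with embryonic samples. With a replicate block 11818 probe sets passed for SVZ against ventral spheres and 1503 for the difference between pairs (882 higher, 621 lower). List counts also moved with the scaling. With signals as deposited and after quantile normalization, 15 and 14 astrocyte genes were higher, and 9 and 12 myelin genes. For hypoxia genes the counts were 9 and 9, for MHC and interferon genes 8 and 9, and for immediate early genes 5 and 7. Lower neuroblast and neuron genes numbered 15 and 15, and lower cell cycle genes 28 and 27. Of 340 named probe sets 193 passed. Without ventral sample 2, 74 of these calls were lost, and without ventral sample 1, 15 were, while leaving out an SVZ array lost 33 to 40. Gas1, a hedgehog co-receptor that did not pass (0.76), reversed to -0.69 without ventral sample 2 and stood at 2.21 without ventral sample 1. The causes of these changes were not tested.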

Other observations

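The same probe sets read in the other adult spheres as follows, given as values with no test. Gfap read 1943, 5212.0 and 6912 in striatum spheres and 1668, 28.2 and 647.8 in neocortex spheres, all below the SVZ arrays. Mbp read 44082, 48771.0 and 56143 in neocortex spheres, all above the SVZ arrays. Six3 read 1065, 729.0 and 1185 in striatum spheres, near the SVZ arrays.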
